A study of Mus musculus with 12 samples.

Results

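The comparison set SGC-0946, a small-molecule inhibitor of the histone methyltransferase DOT1L, against its DMSO vehicle in mouse CD8 T cells, and asked which domains of H3K79me2 still carried a called peak under the inhibitor. Its members were all 55 broad peaks of the SGC list, of 17076 peaks in the 3 lists of the series. Each was matched to the DMSO peak on which it lay by at least 1 base, among 12578 DMSO peaks, and to the gene below it. All 55 (100%) lay on a DMSO peak, 54 wholly and the other over 98.7% of its length. The cells came from male mice and were activated through CD3 and CD28 on day 0. Until day 8 they received either 0.1% DMSO or SGC-0946 every other day, at a labelled dose of 10 mM, a doubtful unit for such a compound. Both groups share the strain CreERT2;DOT1L-flox;OT-I and the genotype wt;wt;het, read here as wild type for the Cre and the floxed Dot1l alleles and heterozygous for the OT-I T cell receptor transgene. H3K79me2 was measured by chromatin immunoprecipitation and sequencing with a yeast chromatin spike-in, in 2 biological replicates and 2 inputs per treatment. Each treatment has 1 peak list, taken here as pooled, so no value below has a spread between replicates or a test. Read depth is unknown, and a domain without an SGC peak is one where none was called.

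DOT1L is the enzyme that methylates lysine 79 of histone H3, and SGC-0946 competes with its methyl donor, S-adenosylmethionine. The dimethyl mark, H3K79me2, lies in transcribed genes, mostly over the 5′ part of the gene body, where DOT1L acts together with factors of transcription elongation. Fold enrichment below is the authors' value for a peak over its background, an average over the peak that is read only within its own list, because depth and background can differ from list to list. A domain is 1 DMSO peak, and a portion is the share of its bases under SGC peaks. Positions are on mm10 (GRCm38). As a check of the labelled cell type, Cd8a carried a DMSO peak of 10.6-fold, while 0 of 3 CD4 T cell markers and 0 of 6 myeloid markers carried a peak. Of 5 B cell markers 1 did, Cd79a at 7.06-fold, and of 5 NK cell markers 3 did, Nkg7, Tyrobp and Klrd1.

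In the protein-coding genes that kept a called peak and have a known strand, the peak began downstream of the gene's outer boundary on the side of its start. Of 31 protein-coding genes with an SGC peak, 27 have an entry in the RefSeq promoter table (GRCm38.p6), which gives their strand. The promoters of 5 are printed to show the bases that lost their call. B2m, Ms4a6b, Pim1 and Srsf3 are the genes where an SGC peak came closest to a listed start that is also the outer boundary of the gene, and Lfng is the protein-coding gene of highest DMSO fold enrichment. Each sequence is the 250 bases before the start, 5′ to 3′ on the plus strand, on which all 5 genes lie. Capitals mark matches to the GC box (GGGCGG) or the TATA box (TATAAA) on either strand.
B2m, chr2:122147437-122147686: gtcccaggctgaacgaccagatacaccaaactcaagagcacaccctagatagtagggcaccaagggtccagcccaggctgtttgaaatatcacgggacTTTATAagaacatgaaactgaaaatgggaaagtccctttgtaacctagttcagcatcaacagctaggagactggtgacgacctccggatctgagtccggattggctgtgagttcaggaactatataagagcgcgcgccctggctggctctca
Ms4a6b, chr19:11518309-11518558: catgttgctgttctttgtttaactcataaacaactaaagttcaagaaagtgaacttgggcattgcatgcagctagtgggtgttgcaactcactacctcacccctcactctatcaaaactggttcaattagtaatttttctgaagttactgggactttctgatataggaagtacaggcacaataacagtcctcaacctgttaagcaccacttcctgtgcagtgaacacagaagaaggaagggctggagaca
Pim1, chr17:29490535-29490784: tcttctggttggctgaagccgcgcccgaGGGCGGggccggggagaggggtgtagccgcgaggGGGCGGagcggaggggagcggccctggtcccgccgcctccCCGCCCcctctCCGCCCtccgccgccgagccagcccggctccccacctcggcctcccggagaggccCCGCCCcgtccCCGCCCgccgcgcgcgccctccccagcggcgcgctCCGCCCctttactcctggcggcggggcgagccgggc
Srsf3, chr17:29032410-29032659: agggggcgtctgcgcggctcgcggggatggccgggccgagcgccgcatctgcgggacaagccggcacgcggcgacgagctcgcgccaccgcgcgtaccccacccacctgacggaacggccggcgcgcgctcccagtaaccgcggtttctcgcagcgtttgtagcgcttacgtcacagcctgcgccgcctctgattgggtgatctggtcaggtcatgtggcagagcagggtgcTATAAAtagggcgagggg
Lfng, chr5:140607091-140607340: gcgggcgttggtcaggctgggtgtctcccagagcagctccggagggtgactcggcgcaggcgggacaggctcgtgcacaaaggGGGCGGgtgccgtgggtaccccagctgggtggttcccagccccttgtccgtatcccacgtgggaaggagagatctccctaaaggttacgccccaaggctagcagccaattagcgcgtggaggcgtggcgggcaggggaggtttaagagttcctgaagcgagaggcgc
All 5 stretches lay wholly under a DMSO peak, and SGC peaks covered 0 of their bases. EPZ peaks are from cells given the DOT1L inhibitor EPZ-5676, read against the same DMSO list. They covered 4 of the 5 wholly and 149 bases of the Srsf3 promoter. Of the promoters of all 27 genes, 20 lay wholly under DMSO peaks and 14 wholly under EPZ peaks. DMSO peaks covered no base of 5 promoters and EPZ peaks no base of 9. SGC peaks covered no base of any.

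B2m, Ms4a6b, Pim1 and Srsf3 were chosen for an SGC peak close to the start, so their short distances were fixed by that choice. Downstream of the printed promoters the SGC peak followed inside the gene. Its first base lay 0.257 kb from the start of B2m, the light chain of MHC class I, and 0.395 kb from that of Ms4a6b, a membrane protein gene of lymphocytes. It lay 0.591 kb from the start of Pim1, a cytokine-induced kinase, 0.701 kb from that of Srsf3, a splicing factor, and 1.51 kb from that of Lfng, a glycosyltransferase that modifies Notch receptors.

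In all 26 protein-coding genes whose peak could be oriented, the SGC peak lay downstream of the start, though not always early in the gene. The start is taken as the gene's outer boundary. DMSO peaks covered the start of 21 of the 26 genes and EPZ peaks that of 16. SGC peaks covered the start of 0 of 26, which allows a share of up to 11.5% (3 counts of the 26). Matching peaks to genes by overlap leaves out any peak wholly before a start. The first SGC base lay a median of 1809.5 bases downstream (interquartile range 928 to 3489), within 1 kb in 7 genes and within 5 kb in 23. The 3 genes beyond were Hnrnpf at 8.64 kb, Tpm3 at 9.85 kb and Ano2 at 186.5 kb. In Hnrnpf and Tpm3 the promoter table lists another start, 2840.5 and 3192.5 bases from the centre of the peak. In Grap2, by contrast, the listed start lies inside the gene, downstream of the peak. The nearest listed start also lay downstream of the peak centre for an SGC peak of Ikzf1 (centre at -1157 bases). The same held for SGC peaks of Mbnl1 (centres at -12870.5 and -1615.5 bases). Distances and their direction therefore depend on which start is used.

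Counted by peak, the 36 oriented SGC peaks of protein-coding genes had their centre a median of 4200.5 bases from the start (95% interval of the median 2560 to 7566.5). The centre lay within 5 kb for 20 of them and within 10 kb for 27. None of the 36 covered a listed start or touched a promoter window (250 bases before to 50 after a listed start), which allows up to 8.33% (3 counts of the 36, which come from 26 genes). The number of genes under an SGC peak rose along the first stretch of the gene, from 0 of 27 at the start to 3 at 0.5 kb, 7 at 1 kb and 13 (48.1%) at 2.5 kb. Among genes long enough, it was 5 of 26 at 4 kb, 6 of 22 at 8 kb, 6 of 21 at 10 kb and 2 of 18 at 15 kb. The 27 include Patl2, whose SGC peak is the one in B2m. DMSO peaks covered 21 of these 27 genes at the start and 24 at 2.5 kb. At 1 kb upstream of the start, DMSO peaks covered 16 of the 27 genes. Only peaks that overlap the gene were counted, so with 0 at the start an SGC count of 0 there was fixed in advance. It says nothing about SGC peaks wholly before a start.

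**Figure D1:**
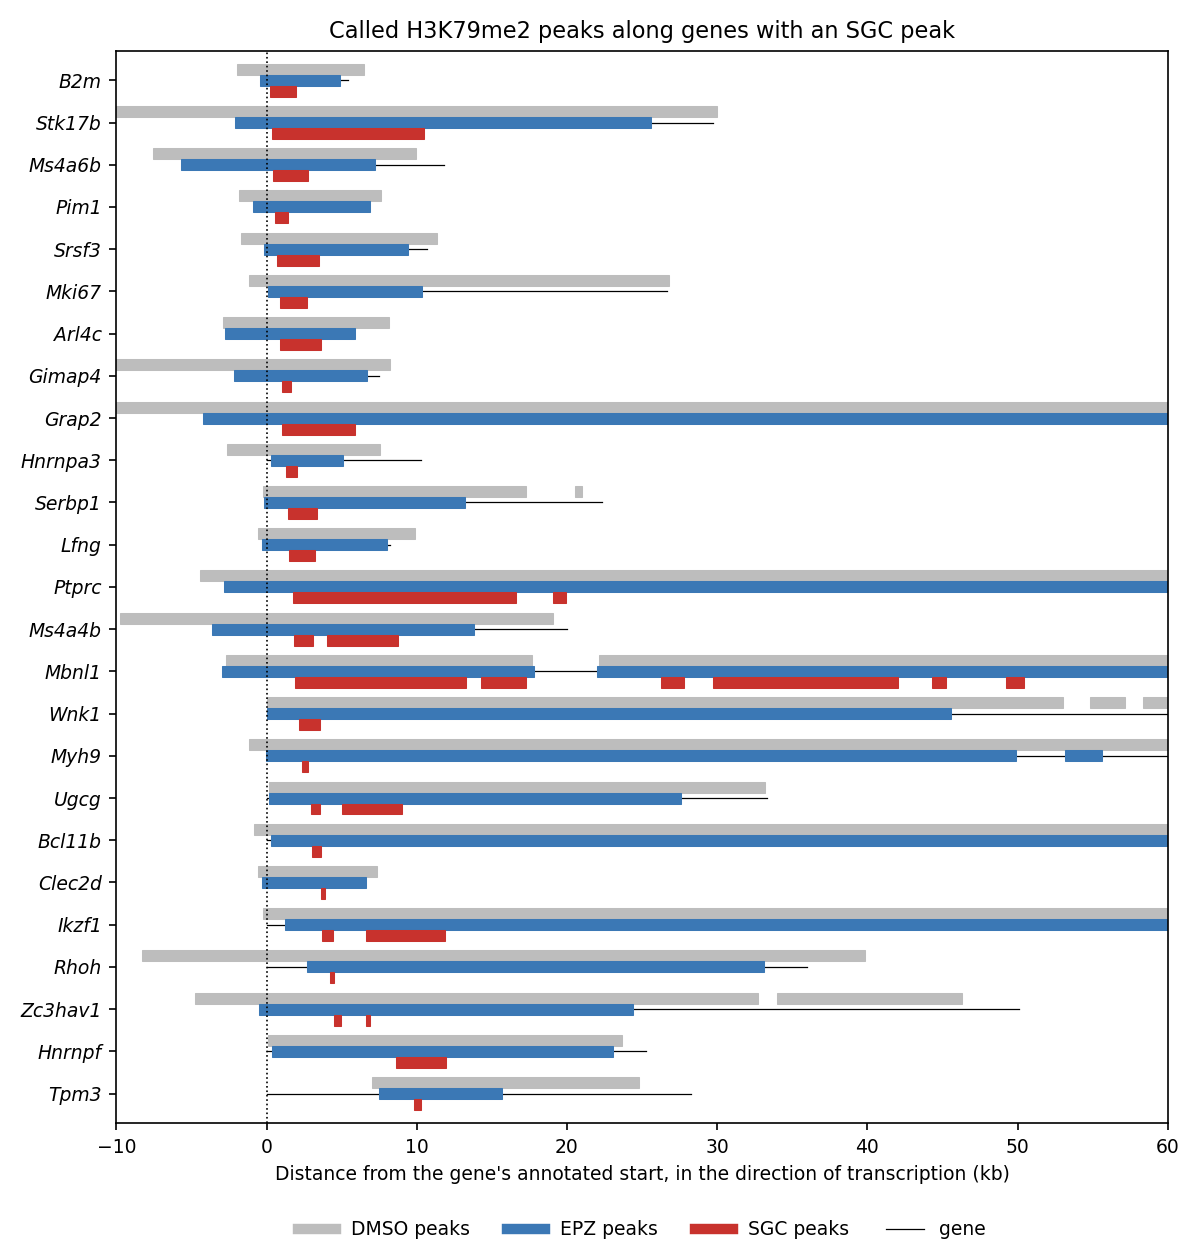
Called peaks along 25 genes with an SGC peak, by distance from the gene's start in kb in the direction of transcription; grey, blue and red bars are DMSO, EPZ and SGC peaks, thin lines are genes, bars are clipped at the plot's edges, and Ano2, with its peak 186.5 kb downstream, is not drawn. Every red bar begins to the right of the dotted start line, from 0.257 kb in B2m to 9.85 kb in Tpm3.

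Within their domain the 36 oriented SGC peaks of protein-coding genes also lay mostly toward the start. Measured from the domain edge on the side of the gene's start, their centres stood at a median of 27.2% of the domain's width (interquartile range 14.1 to 42.7%). Of the 36, 30 lay closer to that edge than to the far one. Peaks in noncoding genes of known strand were not counted. Their centres stood at 79.8% and 91.9% in Gm41331, 82.8% in Gm30275 and 59.7% in Gm34259. Those in Malat1 and Chaserr stood at 28.3% and 21.9%. SGC peaks were short, with a median width of 951 bases, and a short peak misses a start more easily than a wide one. Each peak has 1 averaged value, so whether SGC peaks sit on the highest stretch of a domain was not tested.

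The promoters of these genes ranged from CpG-poor to CpG-rich. Promoters on chromosome 18 were left out of the comparison sets given here. Each promoter is the 250 bases before the outermost listed start, which in some genes lies inside the outer boundary, Grap2, Mbnl1 and Ptprc among them. Patl2 is counted, though its SGC peak is the one in B2m. The GC box occurred in 13 of 27 (48.1%), against 61.1% of 6149 promoters of genes with a DMSO peak and 42.7% of 17492 promoters of all protein-coding genes. The TATA box occurred in 6 of 27 (22.2%), against 5.74% and 12.4%, and the CCAAT box (CCAAT, either strand) in 11 (40.7%), against 37.1% and 36.5%. The median ratio of observed to expected CpG was 0.654, against 0.781 and 0.537, and ranged from 0 in Ms4a4b and Ms4a6b to 1.20 in Hnrnpa3. A match is a match of letters only, none of the 3 motifs contains another, and the shares of this small set are a description.

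SGC peaks lay in 31 protein-coding genes, 0.142% of the 21900 in the gene table and 0.41% of the 7563 with a DMSO peak (34.5% of all). Mbnl1 and Ptprc together held 42.2% of the SGC bases summed over these genes, and 19 genes held 1 kb or more. Of all 55 SGC peaks, 26 had a −log10 q under 2 and are weak calls, not all of them named as such below. Mbnl1 encodes a splicing regulator of the muscleblind family (chr3:60472559-60629750). It carried 6 SGC peaks over 30.4 kb, on separate DMSO domains at its outer start (the start domain) and farther into the gene (the body domain). The start domain, 20.4 kb wide and at 15.02-fold the 8th highest in DMSO, lay under SGC peaks of 11398 bases at 6.67-fold and 3000 bases at 3.84-fold. They covered 70.7% of it, the largest portion of any domain of 1 kb or more. The body domain, 127.5 kb wide at 9.74-fold, carried 4 SGC peaks over 12.5% of its bases, the widest of them 12298 bases at 5.07-fold. All 4 lay near its upstream end, with centres at 3.82% to 21.7% of its width. This domain also spans another listed start of Mbnl1. The 4 centres stood at -1615.5, 7272.5, 16151.5 and 21210.5 bases from that start.

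Ptprc encodes CD45, a phosphatase that acts on the kinases of the T cell receptor (chr1:138062859-138175756). Peaks of 14855 bases at 5.41-fold and 873 bases at 3.52-fold covered 22.3% of its 70.5 kb domain, which stood at 12.7-fold in DMSO. Both peaks lay within the first 20 kb of the gene. Stk17b, a serine/threonine kinase gene (chr1:53755512-53785237), carried 1 peak of 10.1 kb at 5.42-fold. That peak covered 24.5% of a 41.2 kb domain, which at 9.69-fold ranked only 255th in DMSO, so its SGC peak was wider than those on most higher domains.

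The next 4 genes, of T cell receptor signalling and lineage control, kept between 0.572% and 6.92% of their domains, less than Ptprc. Grap2, an adaptor of the receptor's pathway, kept 4.84 kb at 3.46-fold on 83.4 kb at 12.4-fold (5.80%). Rhoh, a GTPase gene of hematopoietic cells, kept 275 bases of 48.1 kb. Ikzf1, which encodes the transcription factor Ikaros, kept peaks of 725 and 5268 bases (chr11:11691552-11696819 for the larger) on 86.6 kb, or 6.92%. Bcl11b, a transcription factor of T lineage commitment, kept 576 bases, 0.632% of 91.1 kb. The Bcl11b domain stood at 13.5-fold, rank 20 in DMSO, and that of Ikzf1 at 9.51-fold, rank 283, so the stronger and wider domain kept the smaller stretch. The Bcl11b and Rhoh peaks are weak calls, each at a −log10 q of 1.34, where the lowest in the SGC list was 1.27. The larger Ikzf1 peak stood at 3.90.

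Genes of RNA binding and processing besides Mbnl1 kept portions of 1.82% to 21.3%. Srsf3 kept 2770 bases at 5.11-fold (chr17:29033361-29036130) on a 13.0 kb domain of 12.8-fold, the 21.3%. Hnrnpf, a nuclear ribonucleoprotein gene, kept 3.33 kb at 4.25-fold, 14.1% of a domain of 13.7-fold. Serbp1, which encodes an mRNA-binding protein, kept 1.95 kb at 3.41-fold (11.1%). Hnrnpa3, another ribonucleoprotein gene, kept 698 bases (6.86%), and Zc3hav1, an antiviral RNA-binding protein gene, kept 231 and 453 bases on 37.5 kb, the 1.82%. The peaks of Serbp1, Hnrnpa3 and Zc3hav1 are weak calls, with a −log10 q of 1.40 to 1.71.

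Genes of the cell surface, its glycans and antigen presentation kept between 0.252 and 5.93 kb. Ms4a4b, a membrane protein gene of lymphocytes like Ms4a6b, kept peaks of 1221 and 4704 bases, 20.5% of 28.8 kb, and Ms4a6b kept 2.38 kb, 13.6% of 17.5 kb. Selplg, the ligand of selectins in leukocyte rolling, kept 1.48 kb at 4.60-fold on a domain of 14.4-fold (8.90%). Ugcg, the synthase of glucosylceramide, kept 594 and 4043 bases (14.0%). Lfng kept 1.71 kb at 3.41-fold, 16.4% of a domain that at 16.5-fold ranked 2nd in DMSO. B2m kept 1.69 kb at 3.68-fold, 20.1% of a domain of 14.0-fold, and this peak also lies inside Patl2, which spans B2m in the gene table. Clec2d, a lectin-like receptor gene, kept 252 bases, the least in this group.

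Cytoskeletal and trafficking genes kept short peaks, with the exception of Arl4c. Arl4c, a small GTPase gene, kept 2.73 kb at 4.10-fold, 24.8% of its domain and 68.8% of the DMSO bases inside the gene. Actb, which encodes beta-actin, kept 324 bases at 5.01-fold, and Tpm3, a tropomyosin gene, kept 436. Arf6, a GTPase of membrane traffic, kept 371 bases. Myh9, a nonmuscle myosin heavy chain gene, kept 383 bases of 74.0 kb, at 0.518% the smallest portion of the 42 domains. Among other genes Mki67, the proliferation marker, kept 1.86 kb of 28.01 kb, Wnk1, a kinase of ion transport, kept 1.45 kb of 53.0 kb, Pim1 kept 863 bases and Gimap4, a GTPase gene of lymphocytes, kept 618. The peaks of Tpm3, Arf6, Myh9, Mki67 and Pim1 are weak calls, with a −log10 q of 1.32 to 1.37.

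SGC peaks also lay in the T cell receptor and immunoglobulin heavy chain loci. At the T cell receptor beta locus SGC peaks of 5229 bases at 5.87-fold (chr6:41534455-41539683) and 3043 bases at 3.87-fold (chr6:41542781-41545823) covered 35.1% of a 23.6 kb domain. They lay at least in part over 11 of the 14 annotated Trbj joining segments, among them all of the second cluster, and over Trbc1, the constant region next to the first cluster. Trbd1, Trbd2 and Trbc2 lay under DMSO and EPZ peaks but not under an SGC peak. In the alpha and delta locus, peaks of 247 and 1491 bases lay 666 and 2930 bases from Trdj1, a joining segment of the delta chain. Their domain, 7.09 kb at 5.30-fold, was the weakest in DMSO to carry an SGC peak, at rank 2259. In the immunoglobulin heavy chain locus a peak of 951 bases lay between the constant region Ighm, 1672 bases away, and the joining segment Ighj4, 3162 bases away, on a domain of 13.6-fold.

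Among noncoding genes, the widest SGC peak of the list, 14929 bases at 4.93-fold (chr7:73542746-73557674), lay over Chaserr, a long noncoding RNA gene next to Chd2. It began 721 bases from the Chaserr start, ended 1000 bases from Chd2 and covered 31.7% of a 47.0 kb domain. Malat1, an abundant nuclear RNA, kept 892 bases at 3.58-fold (14.0%). Gm41331 kept peaks of 937 and 320 bases that lay 37143 and 42888 bases from its start, unlike the early position in the genes above. The peak of 937 bases is a weak call, with the lowest −log10 q of the SGC list, 1.27. A peak of 582 bases at 5.26-fold lay in the domain of H2-K1, an MHC class I heavy chain gene, 81 bases outside the gene. H2-K1 is on the minus strand in the promoter table, so this peak lay before its start, unlike those in the 26 oriented genes. By position, 41 of the 55 peaks lay in protein-coding genes, 11 only in other genes and 3 in none.

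A peak of 925 bases at 3.40-fold (chr11:87755873-87756797) ended 67 bases before Mir142, a microRNA gene expressed in blood cells. This peak is a weak call, at a −log10 q of 1.37. The hairpin (chr11:87756864-87756927) lay wholly under a DMSO and an EPZ peak and SGC peaks covered 0 of its 64 bases. Its mature microRNAs are printed because it is, with the overlapping Mir142b, the nearest gene to that peak. They are from RefSeq (GRCm38.p6), 5′ to 3′ on the plus strand, with the seed (bases 2 to 8) in capitals, and the arms do not share a seed.
mmu-miR-142a-5p: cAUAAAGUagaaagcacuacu
mmu-miR-142a-3p: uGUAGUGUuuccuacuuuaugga

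SGC peaks took up a small portion of most domains that carried one. The portion had a median of 10.7% over the 42 domains (95% interval of the median 6.63 to 16.4%, interquartile range 3.61 to 22.1%) and ranged from 0.518% to 98.4%. It exceeded 50% in 4 domains and was under 10% in 20. Over all 1261 kb of these domains, SGC peaks covered 10.9% and EPZ peaks 78.97%. One SGC peak was present on 31 domains, and the other 11 shared 24 peaks. These 2 comparisons share the DMSO list that defines the domains, and the domains were chosen for their SGC peak.

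**Figure D2:**
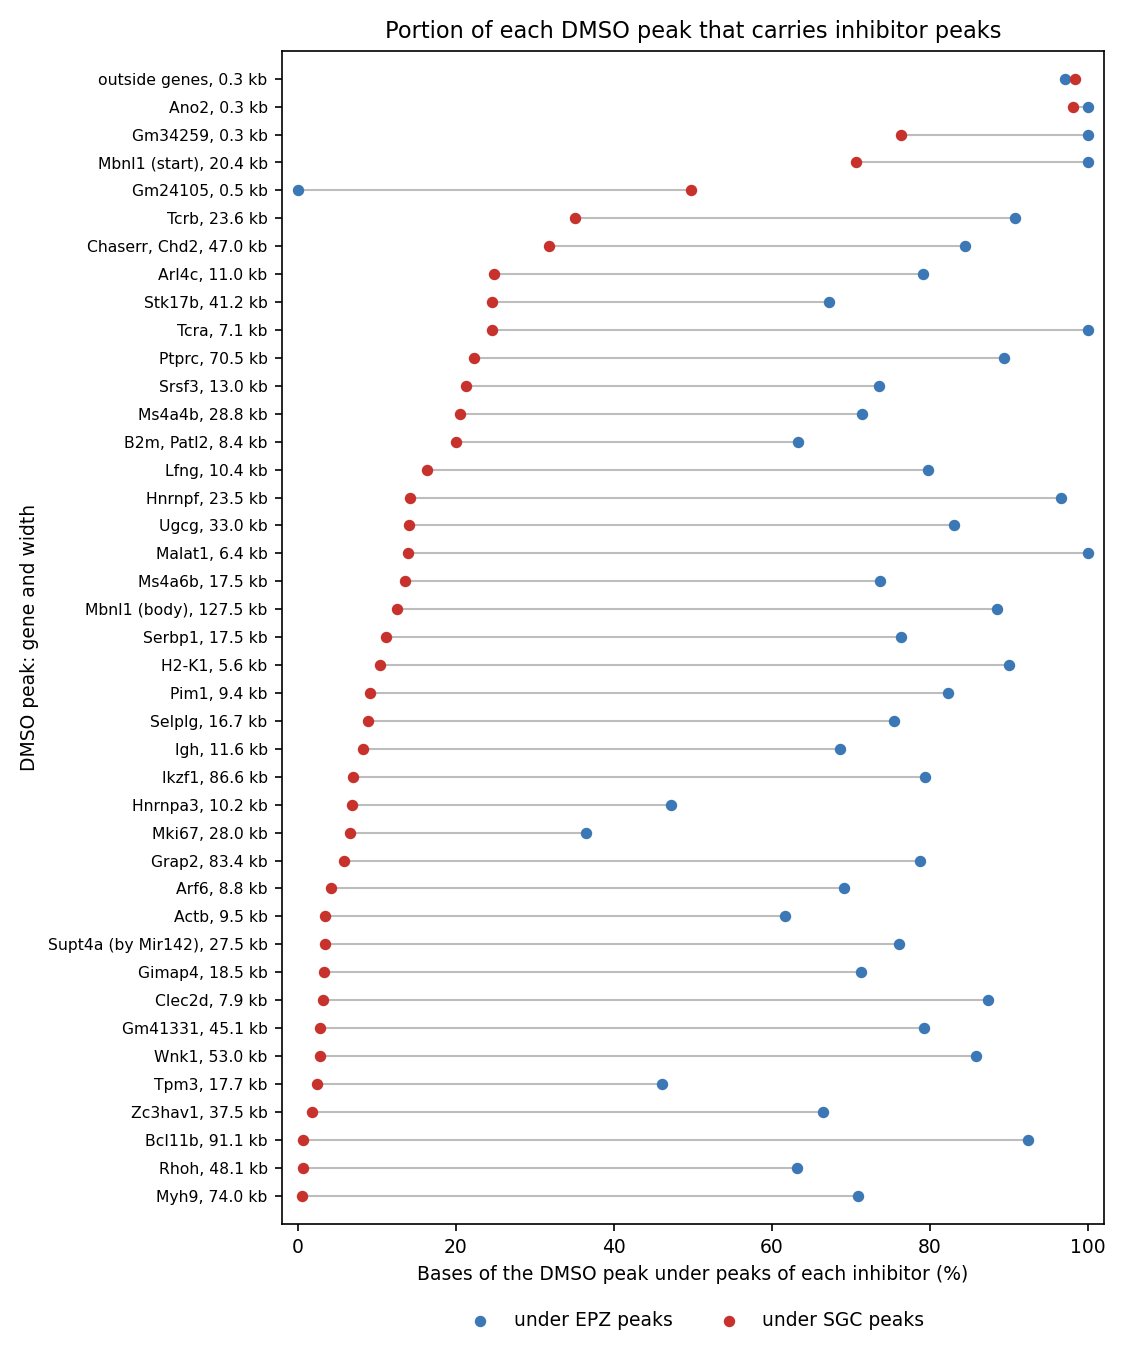
Share of the bases of 41 of the 42 DMSO domains under SGC peaks (red) and under EPZ peaks (blue), in percent, ordered by the SGC share, with the gene and the domain's width in kb. Apart from 3 domains of 0.3 kb and the start domain of Mbnl1, red points lie below 50%, from 0.518% in Myh9 to 49.7% in Gm24105.

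The largest portions belonged mostly to domains under 1 kb, which differed from the rest in shape. There were 4 of them. A domain of 312 bases on chromosome 18, in no gene, was covered over 98.4%, one of 324 bases inside Ano2 over 98.1%, one of 304 bases in Gm34259 over 76.3% and one of 545 bases in Gm24105 over 49.7%. The peaks on the chromosome 18, Gm24105 and Ano2 domains ranked 1st, 2nd and 5th by fold enrichment in the SGC list, at 13.0, 7.84 and 5.73. The Gm24105 domain carried no EPZ peak, unlike the other 41 of the 42 domains with an SGC peak. In DMSO the chromosome 18 domain had the highest fold enrichment of all, 17.9. Among the 3106 DMSO peaks under 1 kb, 3 others reached the lowest DMSO value of these 4, 5.91-fold, a bound set by the members themselves. Without domains under 1 kb, the portion had a median of 9.03% over 38 domains and at most 70.7%, in Mbnl1. What sets the narrow domains apart was not tested.

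Strength in DMSO separated domains with and without an SGC peak only in part. SGC peaks lay on 42 of 12578 DMSO peaks (0.334%, exact 95% interval 0.241 to 0.451%, here and below an interval for counting domains only). Among the 25 DMSO peaks of highest fold enrichment 9 carried one (36.0%, interval 17.97 to 57.5%), and among ranks 26 to 50 5 of 25 did (interval 6.83 to 40.7%). The share was 4.0% at ranks 51 to 100, 8.0% at 101 to 200 and 4.0% at 201 to 400. It was 1.75% at ranks 401 to 800 and 0.125% at 801 to 1600. Below that, 2 of 10978 carried one.

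**Figure D3:**
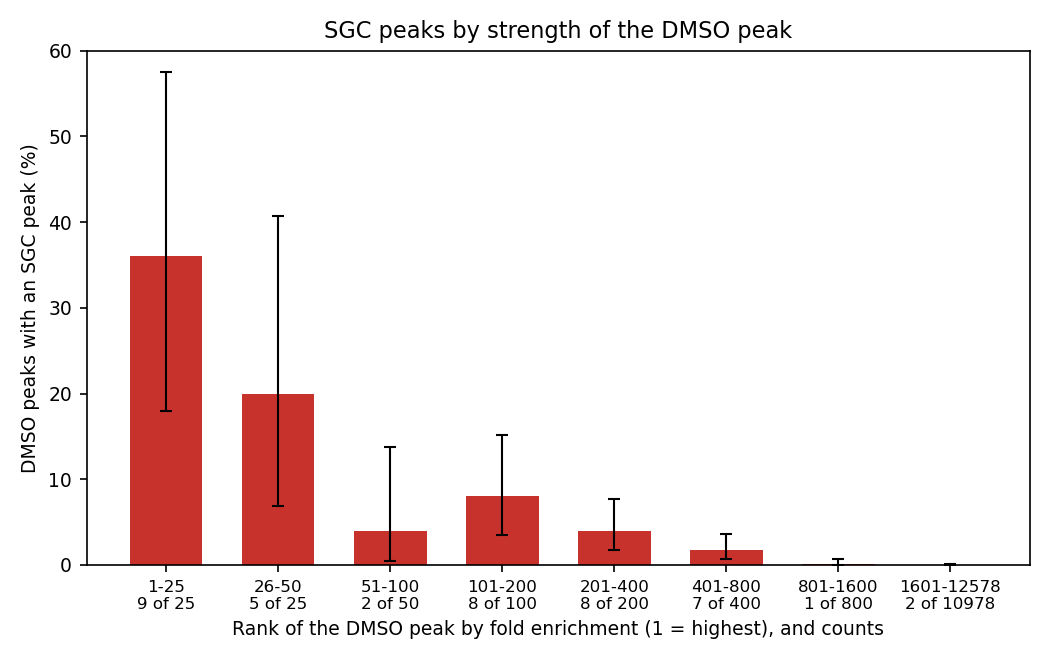
Share of DMSO peaks with an SGC peak, in percent, by rank of the DMSO peak in fold enrichment, with exact 95% intervals for the count of peaks. The share is 36.0% in the top 25 and 1.75% at ranks 401 to 800, with 2 of 10978 peaks in the last group.

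The strong domains, taken as the top 1% of DMSO peaks by fold enrichment (10.8-fold or more), numbered 126. Of these 19 carried an SGC peak (15.1%, interval 9.33 to 22.5%) and 107 did not (84.9%), while 23 domains with an SGC peak were not among the strong. The portion under SGC peaks in the 19 had a median of 14.0%. The ranges of both groups overlapped in DMSO fold enrichment, with medians of 13.0 (interval 11.9 to 14.2) and 11.6 (interval 11.4 to 11.8). They also overlapped in width, with medians of 17748 bases (interval 10439 to 48083) and 10835 bases (interval 8190 to 13439). The intervals count domains of 1 list and test no difference between the groups. All 107 strong domains without an SGC peak carried an EPZ peak, as did all 19 with one, against 26.9% of all DMSO peaks.

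**Figure D4:**
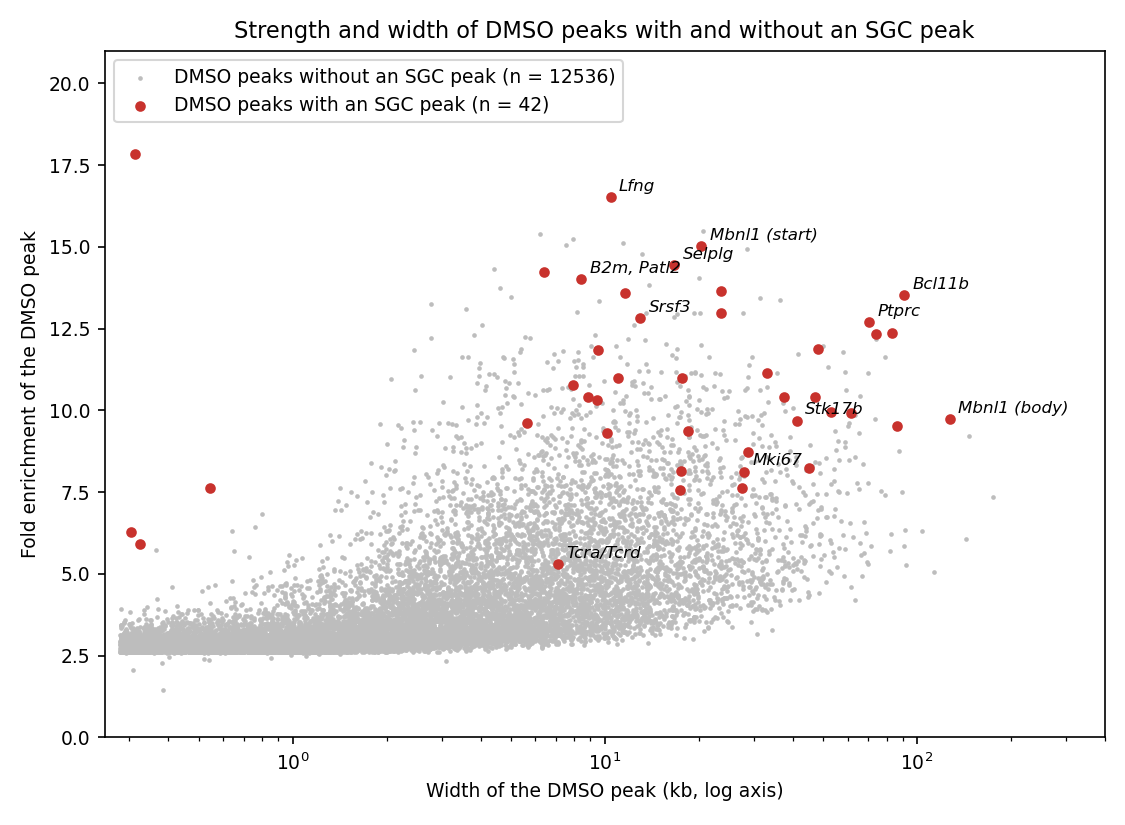
Width (kb, log axis) and fold enrichment of all 12578 DMSO peaks, with the 42 that carry an SGC peak in red and some of them named. Red points lie among the high and wide peaks but are surrounded by grey ones, and 4 stand apart under 1 kb.

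The strong domains that lost their call included genes of RNA binding, chromatin and cytokine signalling. RNA-binding genes such as Srsf3 and Hnrnpf and the cytokine-induced Pim1 were among the genes that kept one. By fold enrichment the first was Fam78a at 15.5, followed by Ptma, a nuclear acidic protein gene, at 15.4 and a domain over Shisa5, Trex1 and Atrip at 15.2. Msl2, a ubiquitin ligase of a histone acetyltransferase complex, stood at 15.1 and a domain over the splicing regulator Ptbp1 and Plppr3 at 15.1. Next were Vps37b, of the endosomal sorting machinery, at 14.9, Jpt1 at 14.8 and the RNA-binding protein gene Pcbp1 at 14.3. All of these exceed Ptprc, at 12.7, and Srsf3, at 12.8, in the DMSO list. Zbtb7a with Pias4 stood at 14.1, the maintenance DNA methyltransferase Dnmt1 at 13.8, the zinc finger factor Maz with Prrt2 at 13.7 and the ribosomal protein gene Rps19 at 13.5. Ankrd44 at 13.5, the RNA-binding protein gene Larp1 at 13.4 and Cish, an inhibitor of cytokine signalling, at 13.3 completed the first 15. Ranked by −log10 q, the first 10 without an SGC peak held 9 of the same domains, from Fam78a at 47.8, and Laptm5, a lysosomal protein gene of lymphocytes, at 39.4.

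Wide domains carried an SGC peak more often than narrow ones, but width did not decide it. The share by rank in width was 24.0% in the first 25 and 4.0% at each of ranks 26 to 50, 51 to 100 and 101 to 200. It was 2.0% at ranks 201 to 400 and 1.0% at 401 to 800, against 0.334% over all DMSO peaks. A wide domain also offers more bases for an overlap of 1 base, and how far this sets the shares was not tested. The 3 widest DMSO domains nevertheless carried no SGC peak. They lay over Bcl2, the survival factor, with 175.5 kb at 7.36-fold, Ankrd11, a chromatin cofactor gene, with 147.0 kb at 9.21-fold, and Fyn, a Src-family kinase of T cells, with 143.7 kb at 6.06-fold. The 4th widest was the body domain of Mbnl1, which did. The other 7 of the 10 widest without an SGC peak were Pvt1, Pitpnc1, Cmip, Tbl1xr1, Lrrc8c, the phosphatidylinositol phosphatase gene Inpp4b and Pde3b, a phosphodiesterase gene, at 87.7 to 113.4 kb and 5.07 to 8.76-fold. EPZ peaks covered between 15.3% of Pvt1 and 85.9% of Pde3b.

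The strong domains, chosen by their DMSO value, were also described by their EPZ peaks. The highest EPZ fold enrichment on the domain had a median of 21.1 in the 19 with an SGC peak (interval 14.9 to 25.7, range 12.1 to 41.0) and 10.4 in the 107 without (interval 9.54 to 11.7, range 5.35 to 23.1). It exceeded 15 in 14 of 19 and in 21 of 107. The share of the domain under EPZ peaks was closer, with medians of 79.1% and 73.4%. Mbnl1 had the highest EPZ value, 41.0, and Ptprc came next among these domains at 37.6. Stk17b, which was not among the strong DMSO domains, stood at 32.4. Ranked by EPZ fold enrichment, 15 of the first 25 DMSO domains carried an SGC peak (interval 38.7 to 78.9%), against 9 of 25 when ranked by DMSO. EPZ peaks lay on 26.9% of all DMSO peaks.

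**Figure D5:**
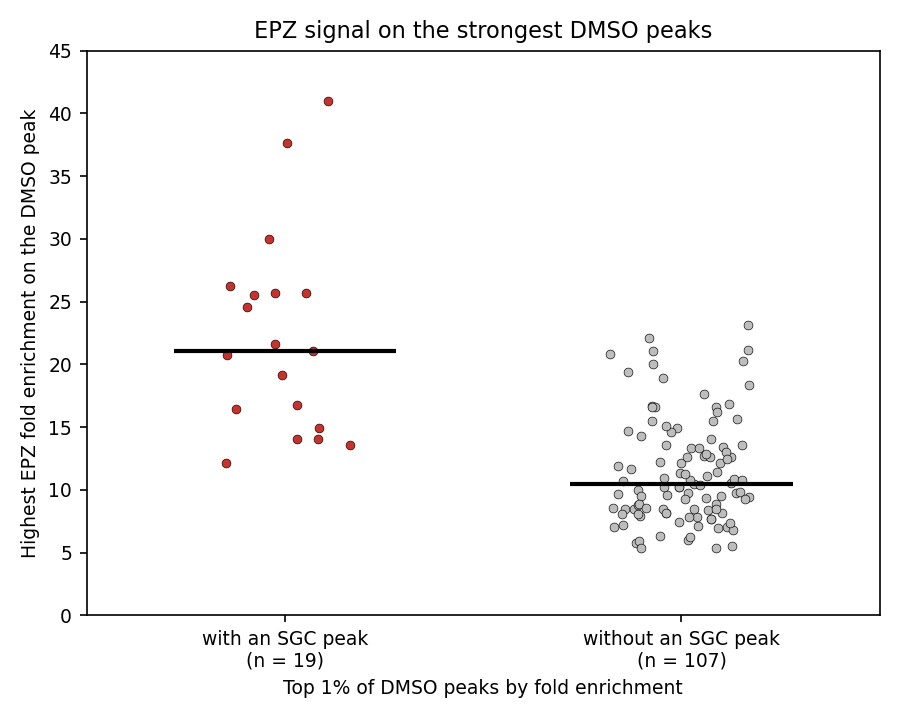
Highest EPZ fold enrichment on each of the 126 strongest DMSO domains, for the 19 with and the 107 without an SGC peak; points are domains, bars are medians and the horizontal scatter has no meaning. The medians are 21.1 and 10.4, and the ranges overlap between 12.1 and 23.1.

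Of 20 gene lists, 10 had a member with an SGC peak, 15 of the 259 listed genes with a DMSO peak (5.79%, against 0.41% of all genes with a DMSO peak). The lists were drawn up with earlier results on these peaks known and hold genes of high DMSO signal, so this share supports nothing about them. Ptprc was among the T cell receptor and identity genes, all 18 of which had a DMSO peak with a median of 8.24-fold, against 4.47 over all genes with one. The 3 highest members without an SGC peak were Lck, the Src-family kinase at the receptor, at 11.6-fold, Zap70, the kinase recruited to it, at 11.2 and Cd3d, a chain of the receptor complex, at 10.7. All 3 stood below Ptprc, at 12.7.

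The counts in the other lists were low as well. Of the lists with members under an SGC peak, T lineage transcription factors held 2 of 16, splicing and RNA binding 2 of 27, the actin cytoskeleton 2 of 20 and the Ms4a cluster 2 of the 5 with a DMSO peak. The Gimap cluster held 1 of 8, antigen presentation 1 of 12, homing 1 of 14, cytokine signalling 1 of 24 and the cell cycle 1 of 26. Cytotoxic effectors held 0 of 10, naive and memory genes 0 of 12, glycolysis and Myc genes 0 of 19 and the partners of DOT1L 0 of 17, Dot1l itself among them at 7.89-fold. Cytosolic ribosomal protein genes held 0 of 30, and all 30 had a DMSO and an EPZ peak, with a median of 7.66-fold in DMSO. With 0.41% of all marked genes under an SGC peak, a count of 0 in lists of this size is no result about them. In these lists members without an SGC peak reached 11.1-fold for Gzmb, the protease granzyme B, 11.3 for Runx3, a transcription factor of CD8 T cells, 12.6 for the MHC class I gene H2-D1 and 13.0 for the actin-bundling gene Lcp1. The 26 of 55 SGC peaks with a −log10 q under 2 are weak calls, and how a count of 1 or 2 in a list depends on depth was not tested.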

How the data were processed

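H3K79me2 was profiled in 12 libraries, of which the DMSO and SGC lists concern 8. The authors deposited 1 broad peak list per treatment. Per the submitters' processing notes, reads were processed with MACS2 2.2.7.1, BWA 0.7.17-r1188 and Picard on mm10 (GRCm38) and sacCer3. For calling settings, pooling, inputs and spike-in scaling the answer is not given in the sources used here. If the yeast reads did not scale the lists, a global loss of signal changes them only through the calling of peaks. The deposited fold enrichment is the authors' ratio over background, and the deposited −log10 p and −log10 q are the authors' averages over a peak. The score deposited by the authors was not used, nor was −log10 p.

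Overlaps of 1 base or more joined the lists (Python 3.11.15, numpy 2.4.6, pandas 2.3.3, scipy 1.17.1, matplotlib 3.10.9), with functions tested on simulated data. Genes came from a RefSeq table on GRCm38.p6, strand from its promoter table, with no entry for Arf6, Selplg and Actb among others. The result for 1 gene under SGC peaks is not reported here, though it is in the counts. Exon structure was not used here. For distances, the start of a gene is its outer boundary, while promoters lie before the outermost listed start. Intervals of shares are exact (Clopper-Pearson, 95%) and those of medians come from order statistics. They cover the number of peaks or genes only. The limit given beside a count of 0 is 3 counts of the total, not an exact interval. Named genes are those under an SGC peak, the 15 highest domains without one by fold enrichment, the 10 widest, the 10 highest by −log10 q, and the 3 highest T cell identity genes without one. Other list members were named after their values were seen. Members and lists were chosen with earlier results of these data known. Alternatives changed the threshold on q, the overlap, short or narrow peaks, the joining of peaks, the gene rule and the definition of strong.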

Additional observations from a re-analysis of the deposited data

How the results depend on the processing

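With a −log10 q of at least 5 required in every list, 9 SGC peaks were left, all 9 on DMSO peaks, on 9 domains and in 5 genes (Ano2, Mbnl1, Ptprc, Srsf3 and Stk17b). The median portion of a domain was then 24.5% under SGC and 90.0% under EPZ peaks, 91.2% of strong domains (31 of 34) had no SGC peak, and 2 gene lists had a member with one, a setting added for the lists after seeing the data. Requiring SGC peaks over at least 50% of a DMSO peak left 4 domains. The share of strong domains without an SGC peak was 91.3% for the top 1% by width and 94.3% for the top 5% by fold enrichment, and 83.3% for the top 1% by −log10 q. The other 28 alternative values stayed within 1.5 times the count or inside the interval of the reported value. Without SGC peaks under 500 bases, 31 domains and 23 genes kept a call. Chosen after seeing the data, leaving out DMSO peaks under 1 kb gave 38 domains and a median portion of 9.03%, and the start nearest to the peak in the promoter table gave a median distance of 2712.5 bases, against 4200.5. No paired analysis was possible because each treatment has 1 list without replicate columns, and for the same reason no replicate could be left out. Depth is unknown, so weak domains cannot be told apart from uncalled ones.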
